A study of Homo sapiens with 6 samples.

Results

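The antigen receptor loci are the stretches of the genome from which B cells and T cells assemble their receptors. Here they are described by the open chromatin peaks that fell inside them in cells of another lineage, ventricular-like cardiomyocytes. The peaks of all 6 libraries were merged into regions wherever they overlapped by at least 1 bp, and members were chosen by where these called peaks lay: a region was kept when its midpoint fell in 1 of 5 loci of the genome build hg19. Of 157560 regions in the series, 245 met this rule. The immunoglobulin heavy chain locus IGH (chr14:106030001-107290000) held 69, the kappa light chain locus IGK (chr2:89150001-90280000) 28 and the lambda light chain locus IGL (chr22:22380001-23270000) 53. The T cell receptor alpha and delta locus TRA/TRD (chr14:22090001-23030000), in which the delta genes lie inside the alpha locus, held 49. The T cell receptor beta locus TRB (chr7:141990001-142520000) held 46. The loci were put forward with earlier results of these data known, among them a loss of peaks at IGH in the knockdown, so the IGH comparison is given as a description with no p.

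The study profiled chromatin accessibility by ATAC-seq, which uses the transposase Tn5 to insert adapters where DNA is open, in derivatives of H9, a human line of embryonic stem cells. Cells were taken at day 15 of a differentiation protocol for ventricular cardiomyocytes, and 3 libraries were controls and 3 came from cells with a knockdown of ZNF436, a zinc finger protein gene. Replicates were independent differentiations. All 6 libraries share the cell line, the protocol and the day. How ZNF436 was knocked down, and what the controls received, is not given in the sources used here; cardiomyocyte markers and the ZNF436 gene itself were not analysed here. The control lists held 50719, 53662 and 68342 peaks and the knockdown lists 115864, 102454 and 87871, and the depth of the libraries is unknown. Every knockdown list was therefore longer than every control list, and a share of the list and a number of peaks can move in opposite directions. In bulk libraries, fewer cells with an open site and a less open site in each cell cannot be told apart.

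An antigen receptor locus holds arrays of variable (V) segments at one end and joining (J) segments and constant (C) genes at the other, with diversity (D) segments between them in the heavy chain, beta and delta loci. In developing lymphocytes the RAG recombinase joins single segments into a working exon, and enhancers near the constant genes take part in opening them. In other lineages the loci keep their germline order and are not recombined. The RefSeq table of the GRCh38.p14 assembly, used here for names and order, lists 127 V segments at IGH, 48 of them not pseudogenes, with 27 D segments, 9 J segments and 11 C genes. It lists 76 V segments, 5 J segments and 1 C gene at IGK, and 73, 7 and 7 at IGL. At TRA/TRD it lists 57 V, 3 D and 65 J segments with 2 C genes, and at TRB 61, 2, 14 and 2. Some unrelated protein-coding genes lie inside the loci, such as PRAME and ZNF280B at IGL, the olfactory receptor genes OR10G2, OR4E1 and OR4E2 at TRA/TRD and the trypsinogen genes PRSS1 and PRSS2 at TRB.

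IGH lost peaks in the knockdown libraries although their lists were longer. The control libraries had 29, 45 and 32 peaks there and the knockdown libraries 13, 20 and 16. The groups did not overlap. How many of all rows had groups that did not overlap is not given here, for this locus or the others. Per 10,000 peaks of the list this was 6.26 ± 1.91 (SD, n = 3) in the control and 1.63 ± 0.446 (SD, n = 3) in the knockdown. On the log2 scale the share changed by -1.92, which ranked 7 from the lowest of 2852 rows, the 5 loci and bins of 1 Mb over the rest of the chromosomes. The median row had itself moved by 0.16, and relative to it the change was -2.08. For the other loci the test is of the change in share itself, and the change relative to the median row is given after it with no p of its own.

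IGK also had fewer peaks in every knockdown library, and the numbers were close together within each group. They were 18, 18 and 19 in the control and 16, 15 and 14 in the knockdown. Counted as merged regions, the numbers were 12, 14 and 14 in the control and 14, 13 and 9 in the knockdown, which overlapped. Some merged regions thus held more than 1 peak of a library. The share of the list went from 3.23 ± 0.40 to 1.48 ± 0.107 peaks per 10,000 (SD, n = 3 each). The log2 change in share was -1.11 (limma, Benjamini-Hochberg adjusted p = 0.000576), or -1.27 relative to the median row, and 10.2% of all rows were called lower. In number of peaks, without scaling to the length of the lists, the log2 change was -0.28 and the call was lost (limma, adjusted p = 0.292). The bases covered by peaks at IGK were 17085 ± 1046 in the control and 15933 ± 2123 in the knockdown (SD, n = 3 each), and these ranges overlapped. Scaled to the bases covered by the whole list, the log2 change was -1.003 (limma, adjusted p = 0.0011).

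IGL showed numbers of peaks that overlapped between the groups, with 10, 19 and 21 in the control and 25, 19 and 16 in the knockdown. Its share went from 2.86 ± 0.806 to 1.94 ± 0.186 peaks per 10,000 (SD, n = 3 each). The log2 change in share was -0.53 (limma, adjusted p = 0.0491, just under the threshold of 0.05), or -0.69 relative to the median row. In number of peaks, without scaling, the direction turned (log2 change 0.30, limma adjusted p = 0.256). The call was also lost without control replicate 2 (-0.36, adjusted p = 0.192), without control replicate 3 (-0.47, adjusted p = 0.103) and without any 1 of the knockdown libraries (-0.61 to -0.49, adjusted p from 0.0931 to 0.149).

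The T cell receptor loci moved the other way. At TRA/TRD the control libraries had 10, 5 and 15 peaks and the knockdown libraries 36, 29 and 23. Every knockdown value was above every control value, and the share went from 1.70 ± 0.674 to 2.85 ± 0.245 peaks per 10,000 (SD, n = 3 each). The log2 change in share was 0.78 (limma, adjusted p = 0.0305), or 0.62 relative to the median row, where 19.9% of all rows were called higher. It ranked 2565 from the lowest of 2852 rows. In number of peaks, without scaling, 89.9% of all rows were called higher. When the libraries were scaled to the median ratio over rows, which takes out most of the move of the median row, the change was 0.64 and the call was lost (limma, adjusted p = 0.0587).

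At TRB the control libraries had 8, 10 and 12 peaks and the knockdown libraries 34, 27 and 27. The groups were again separate, at 1.73 ± 0.145 and 2.88 ± 0.224 peaks per 10,000 (SD, n = 3 each). The log2 change in share was 0.68 (limma, adjusted p = 0.00535), or 0.53 relative to the median row. It ranked 2477 from the lowest of 2852 rows. The size of these rises depended on how the lists were shortened. In the stronger 50% of each list both were larger, at 1.38 for TRA/TRD (limma, adjusted p = 0.00534) and 1.67 for TRB (adjusted p = 0.00297). The knockdown lists were still the longer ones in that setting. The control mean at both loci was then 1.69 on the log2 scale of scaled peaks, so few control peaks were left. When each list was reduced to its 50719 strongest peaks, TRA/TRD had 10, 5 and 9 control and 11, 9 and 8 knockdown peaks, which overlapped, and its call was lost (log2 change 0.25, limma adjusted p = 0.469). TRB had 8, 10 and 9 against 14, 16 and 13 peaks and kept its call (0.64, limma adjusted p = 0.0156). Without the densest 100 kb of each locus the TRB call was lost (log2 change 0.38, limma adjusted p = 0.152). With the reduced lists IGH had 29, 42 and 20 against 0, 3 and 3. Without control replicate 2, whose TRA/TRD peaks were the fewest, the log2 change at TRA/TRD was 0.42 (limma, adjusted p = 0.0616), and the call was also lost without any 1 of the knockdown libraries (0.71 to 0.83, adjusted p from 0.074 to 0.118).

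**Figure D1:**
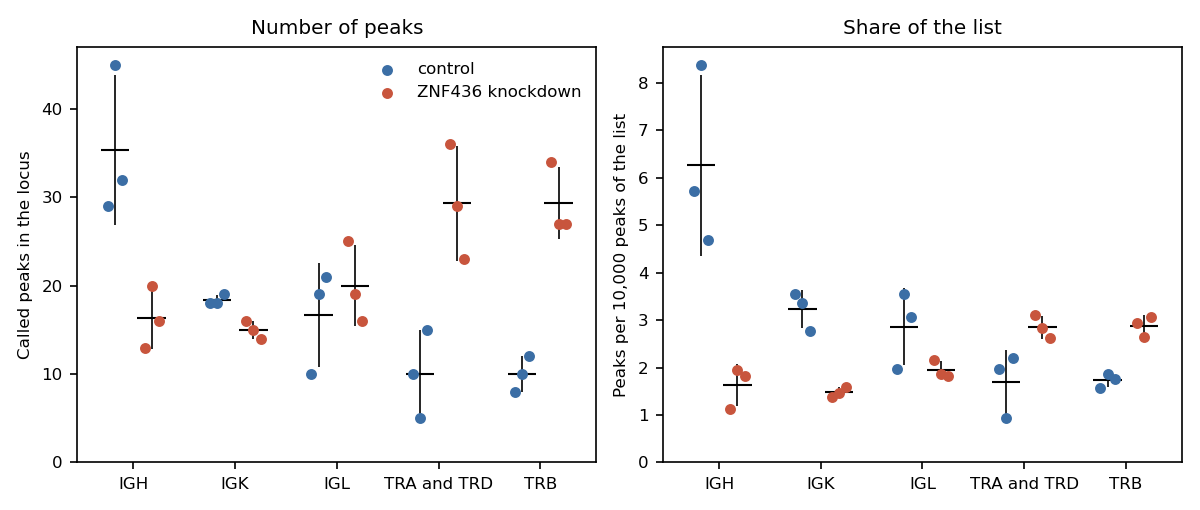
Called peaks in each locus (left, number; right, peaks per 10,000 peaks of the library's list), with 1 point per library, the mean as a horizontal line and ± 1 SD as a vertical line (n = 3 per group). IGH falls on both scales and the T cell receptor loci rise on both, while IGL overlaps in number (10 to 21 control, 16 to 25 knockdown peaks).

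The receptor families can also be set against each other within a library. For every peak at the light chain loci IGK and IGL together, the control libraries had 0.643, 0.405 and 0.675 peaks at the T cell receptor loci. The knockdown libraries had 1.71, 1.65 and 1.67. The means were 0.574 ± 0.147 and 1.67 ± 0.0307 (SD, n = 3 each). The light chain loci held 28, 37 and 40 peaks in the control and 41, 34 and 30 in the knockdown. Over the genome the median bin of 1 Mb held 13, 13 and 17 control and 34, 29 and 25 knockdown peaks. The median bin set over the light chain loci would thus rise too, and the rise of the ratio is not particular to the T cell receptor loci. An exact two-sided permutation test, chosen after the values were seen, gave p = 0.1, the smallest value that 3 against 3 libraries allow. With lists of equal length the knockdown ratios were lower, at 1.39, 1.32 and 0.955, and the control ratios were 0.643, 0.441 and 0.667. The groups stayed separate. Summed over the 3 immunoglobulin loci, the share was 12.4 ± 2.56 peaks per 10,000 in the control and 5.06 ± 0.342 in the knockdown (SD, n = 3 each), and over the T cell receptor loci 3.43 ± 0.587 and 5.73 ± 0.290 (SD, n = 3 each). The immunoglobulin sum includes IGH, at 6.26 in the control and 1.63 in the knockdown. The loss at IGH was known when the loci were put forward.

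Few of the member regions were shared by all libraries. In all, 22 of 245 (8.98%) were called in all 6, against 18.2% of the regions of the series, and 125 (51.0%) were called in 1 library alone, against 38.3%. These single calls were most frequent at IGH, with 45 of 69 regions, and control replicate 2 alone supplied 23 of them. At IGK 7 of 28 regions were called in all 6 libraries, at IGH 6 of 69, and at each of the other loci 3.

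Presence separated IGH from the T cell receptor loci in the same way as the shares did, and it is what the choice of regions used. At IGH 47 of 69 regions (68.1%) were called in at least 1 control library and in no knockdown library, a pattern shown by 10.7% of all regions. At IGK this held for 9 of 28 and at IGL for 17 of 53, and at TRA/TRD and TRB for 2 of 49 and 4 of 46. In the other direction, 30 of 49 TRA/TRD regions and 28 of 46 TRB regions were called in at least 1 knockdown library and in no control library, against 47.7% of all regions. At IGH 7 of 69 showed this, at IGK 6 of 28 and at IGL 21 of 53 (39.6%). At IGL more regions were thus called only in knockdown libraries than only in control libraries (21 against 17), although its share fell.

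Few regions were complete in 1 group (a peak in each of its 3 libraries) and absent from the other. For the knockdown there were 14 (5.71% of the members, against 7.72% of all regions). They comprised 8 of 49 at TRA/TRD and 6 of 46 at TRB, and none of the 150 immunoglobulin regions. In the control there was 1 (0.408%, against 0.131% of all regions), chr22:22646178-22646544 at IGL, whose peaks lay at the 23.8th, 41.8th and 10.3rd percentile of the scores of their lists. The 14 became 3 when lists were cut to equal length, 22 without control replicate 3 and 23 without knockdown replicate 3, while the share over all regions moved with them to 3.07%, 13.5% and 15.6%. The 1 control region became 9 when control replicate 1 was left out, 4 when it was replicate 2 and 3 when it was replicate 3. Leaving out knockdown replicate 1 gave 2 and knockdown replicate 2 gave 3. Over these 5 settings the share of all regions was 0.231% to 0.528%.

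Along the loci the peaks were far from evenly spread. At IGH 29 of 69 regions lay between 106726308 and 106822243 on chromosome 14, in the array of V segments. This stretch held 23, 21 and 22 control peaks and 11, 15 and 14 knockdown peaks, which did not overlap. Outside it the locus held 6, 24 and 10 control and 2, 5 and 2 knockdown peaks. The loss was thus seen on both sides of this divide, with control replicate 2 well above the other controls outside the dense stretch.

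IGK was the most concentrated locus. All but 1 of its regions lay within chr2:89830473-89890526, 60.1 kb of a locus of 1130 kb, on the V side of the locus, and all 7 regions called in every library were there. The stretch was not checked against a list of hg19 regions known for anomalous signal, so the IGK counts and scores are those of the lists as deposited. The stretch held 18, 18 and 19 control peaks and 14 in each knockdown library. The 30 kb at the constant end, where the single kappa constant gene lies, held no peak in any library. Beyond the stretch, the control libraries had no peak anywhere in the locus and the knockdown libraries had 2, 1 and 0.

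**Figure D2:**
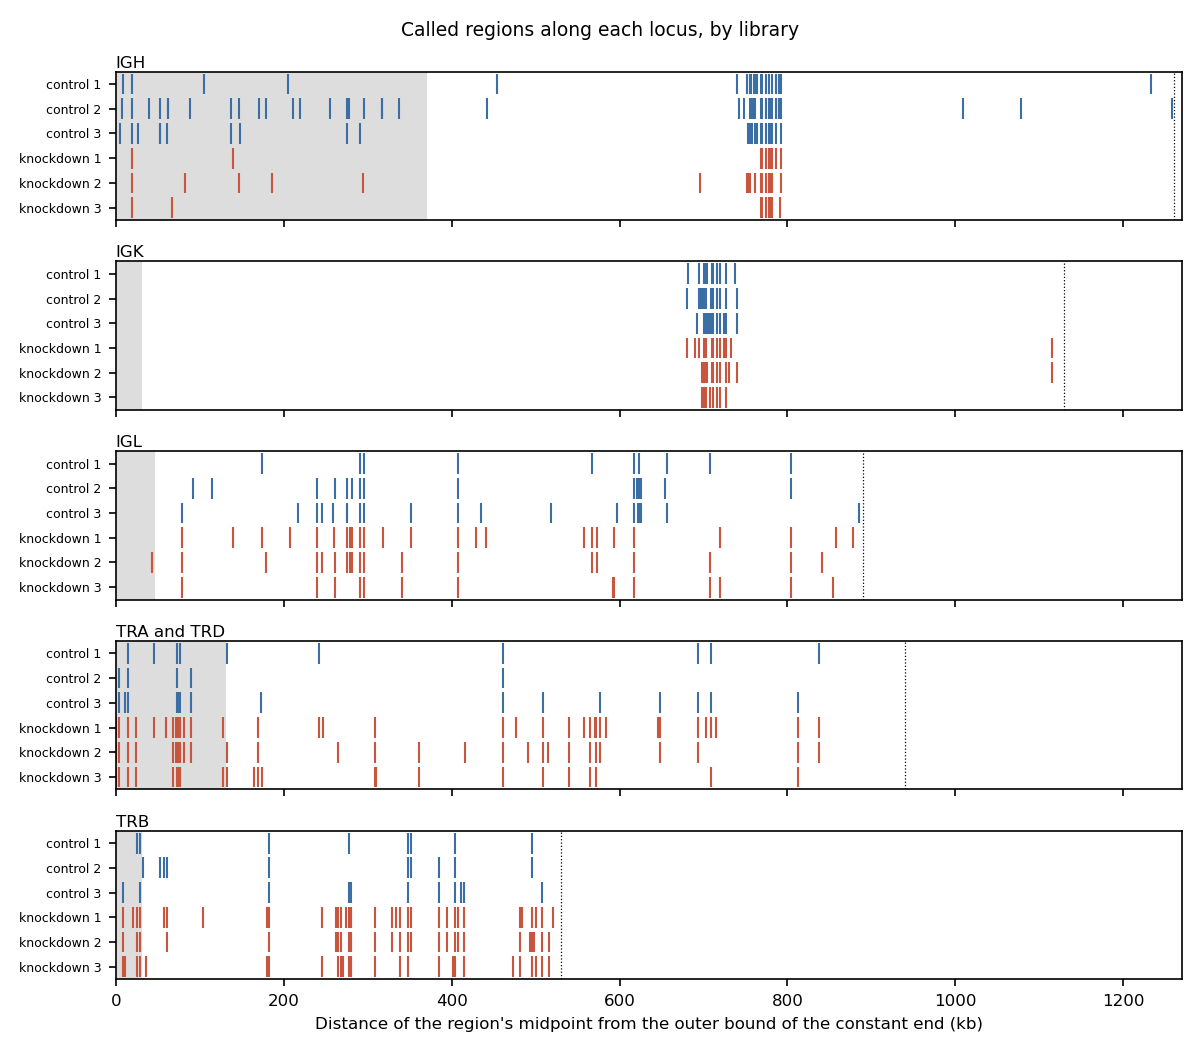
Regions called in each library (ticks, 1 row per library, control in blue and knockdown in red) by distance in kb from the outer bound of the constant end of each locus. The shaded part is the constant end and the dotted line is the far bound of the locus. IGK ticks crowd into 1 narrow stretch (27 of 28 regions) and IGH has a dense stretch within its variable end (29 of 69). IGL, TRA/TRD and TRB have a smaller part of their regions in their densest 100 kb (16 of 53, 14 of 49 and 14 of 46).

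The constant end was compared with the variable end as peaks per Mb, with borders taken from the known order of the genes rather than from an hg19 annotation. At TRA/TRD the constant end (130 kb, the J segments and constant genes) held 38.5 ± 13.3 peaks per Mb in the control and 84.6 ± 20.4 in the knockdown (SD, n = 3 each). The variable end held 6.17 ± 4.45 and 22.6 ± 4.99. The constant end was the denser in 6 of 6 libraries, with a log2 ratio of 2.43 ± 0.91 (SD, n = 6). The exact two-sided sign-flip permutation test gave p = 0.03125, its smallest value, and 0.156 after adjustment over the 5 loci. Without the densest 100 kb, which lies in the constant end, the log2 ratio was 1.32 ± 1.501 (SD, n = 6, exact permutation adjusted p = 0.0521). Only 5 constant-end peaks were then left over the 6 libraries. In control replicates 1 and 3 all constant-end peaks (4 and 7) lay in the removed stretch. Their ratios were thus set by the small count added to each end before taking logs. This setting therefore cannot show whether the constant end stayed denser in every library.

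At TRB the constant end (30 kb) held 2, 0 and 2 peaks in the control libraries and 4, 3 and 4 in the knockdown libraries. The log2 ratio to the variable end was 1.43 ± 1.01 (SD, n = 6), higher in 5 of 6 libraries (exact permutation p = 0.0625, adjusted p = 0.156). At IGH the log2 ratio was -0.43 ± 0.88 (SD, n = 6), with the constant end denser in 2 of 6 libraries (exact permutation p = 0.25, adjusted p = 0.25). This ratio depended on the dense V stretch. Without the densest 100 kb it was 3.68 ± 1.21 (exact permutation adjusted p = 0.0521), with 6 variable-end peaks left over the 6 libraries. In control replicate 3 (10 peaks left) and the knockdown libraries (2, 5 and 2), all IGH peaks left lay in the constant end. The ratios of these libraries were thus set by the small count added before taking logs. Over covered bases the IGH log2 ratio was -1.81 ± 0.926 (exact permutation adjusted p = 0.0391). That adjusted value depends on IGK having the same p, although the IGK constant end held no covered base. The IGH constant end (370 kb) held 4, 20 and 10 control peaks and 2, 5 and 2 knockdown peaks, and 15 of its 34 regions were called in control replicate 2 alone. The IGL constant end (45 kb) held 1 peak, in knockdown replicate 2, and the IGK constant end none. The ratios of these light chain loci are set by the 0.5 peaks added before taking logs and are not given, although both enter the adjustment.

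In number of peaks most of the genome was higher in the knockdown: without scaling, 2563 of 2852 rows (89.9%) were called higher. The TRA/TRD variable end went from 5.00 ± 3.61 to 18.3 ± 4.04 peaks and its constant end from 5.00 ± 1.73 to 11.0 ± 2.65 (SD, n = 3 each). With the ends as rows of their own, the log2 change in share was 1.26 (limma, adjusted p = 0.0793) for the variable end and 0.25 (adjusted p = 0.413) for the constant end. Whether these changes differ from each other was not tested. At TRB the changes of the ends were alike in size, 0.71 (limma, adjusted p = 0.0108) for the variable end and 0.67 (adjusted p = 0.398) for the constant end, which held few peaks.

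The sequence next to the loci gave a local reference of the same length. The flank below IGH held 21.96 ± 1.82 peaks per 10,000 in the control and 16.3 ± 1.88 in the knockdown (SD, n = 3 each), a smaller relative fall than in the locus. The flank at higher coordinates reaches the chromosome end and held no peak. Around IGK the flanks differed. The lower flank went from 3.25 ± 0.285 to 3.32 ± 0.225 and the higher flank from 3.42 ± 1.06 to 1.47 ± 0.0905 (SD, n = 3 each), so the sequence above IGK fell in share as IGK did.

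Around IGL the shares were 5.00 ± 0.482 and 4.89 ± 0.113 below and 7.94 ± 0.385 and 6.99 ± 0.71 above (control and knockdown, SD, n = 3 each). The TRA/TRD flanks were lower in the knockdown, from 6.48 ± 1.11 to 4.87 ± 0.434 below and from 14.2 ± 0.759 to 11.8 ± 1.08 above (SD, n = 3 each), while the locus itself rose. The flank above TRB stayed at 1.91 ± 0.512 and 1.89 ± 0.263 (SD, n = 3 each). The flank below TRB was nearly empty, with 0, 1 and 0 control and 3, 3 and 3 knockdown peaks.

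**Figure D3:**
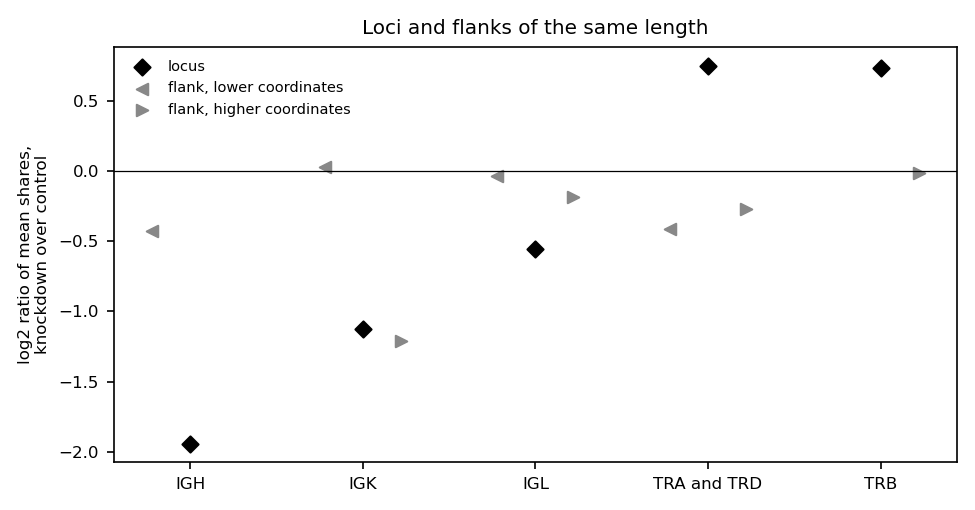
Change in the share of the list, as log2 of the knockdown mean over the control mean (n = 3 each), for each locus (diamonds) and its flanks of the same length (triangles). The T cell receptor loci lie above their flanks and IGH lies below its lower flank, while IGK lies beside its higher flank. The empty flank above IGH and the sparse flank below TRB are not drawn.

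The score of a peak is the peak caller's own value, and it was compared as a percentile within its own list. IGK held some of the strongest peaks of every list beside weak ones. The median percentile of its peaks was 88.2 ± 8.92 in the control and 84.0 ± 18.3 in the knockdown (SD, n = 3 each). At the other loci the medians lay in the lower or middle part of the lists. They were 34.8 ± 4.16 and 30.7 ± 2.29 at IGH, 35.6 ± 6.74 and 44.97 ± 5.26 at IGL, 38.9 ± 8.96 and 44.0 ± 4.23 at TRA/TRD, and 36.7 ± 12.5 and 51.8 ± 6.39 at TRB (control and knockdown, SD, n = 3 each). With lists of equal length the knockdown minus control difference was 0.45 at TRB and -6.39 at TRA/TRD, with SDs of 11.1 and 10.4. At IGH the medians were then 32.8 ± 4.16 (SD, n = 3) and 12.5 ± 1.01 (SD, n = 2), from 3 peaks in each of the knockdown libraries that still had any.

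The regions called in all 6 libraries show how single sites ranked in the groups. In a longer list the same peak tends to rank at a higher percentile, and over the 28749 such regions of the series every knockdown percentile was above every control percentile in 44.4% and below in 2.37%. At IGH 5 of 6 such regions were lower in every knockdown library and none higher. At TRB 3 of 3 were higher, at TRA/TRD 2 of 3, at IGL 1 of 3 and at IGK 1 of 7, and none of these was lower. Counted as places from the top of the list, where a longer list gives no such lift, 9.93% of the shared regions of the series were placed higher in every knockdown library and 16.2% lower. By that measure 6 of 6 IGH regions were placed lower, as were 3 of 7 at IGK and 1 of 3 at TRA/TRD, and 1 region at TRA/TRD and 1 at TRB were placed higher.

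The IGH region that ranked highest was chr14:106049032-106049367 in the constant end, the 1 region there called in all libraries. Its percentiles were 83.4, 86.0 and 83.1 in the control and 37.4, 64.1 and 52.8 in the knockdown. The widest, chr14:106800791-106807089, spanned 6299 bp of the dense V stretch and lay at 74.1, 82.4 and 74.4 in the control and 50.3, 57.0 and 49.1 in the knockdown. Both were separate between the groups, with the control higher.

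At IGK the strongest region, chr2:89874109-89880009, was 5901 bp wide and above the 99.9th percentile in every library. Its scores were 12937, 11876 and 10687 in the control and 10049, 12888 and 8642 in the knockdown, which overlapped. Beside it, chr2:89866448-89873445 spanned 6998 bp and stayed between the 99.6th and 99.9th percentile. Both regions thus stayed near the top of the lists in both groups.

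At IGL chr22:22651893-22653379 lay at 85.3, 93.1 and 86.8 in the control and 93.1, 94.7 and 88.8 in the knockdown. The region chr22:22862448-22863354 lay at 75.8, 75.7 and 77.9 in the control and 88.5, 87.8 and 83.4 in the knockdown. It was the 1 of the 3 shared IGL regions whose groups were separate by percentile. By place from the top none of the 3 was separate.

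At TRA/TRD chr14:22568418-22568824, in the V array, ranked at 38.3, 48.9 and 77.9 in the control and 84.6, 92.0 and 88.8 in the knockdown. In the constant end, chr14:22956860-22957422 ranked at 23.8, 54.9 and 74.4 in the control and 85.9, 86.9 and 88.8 in the knockdown. The third shared region, chr14:23015313-23015777, did not follow them, at 31.6, 23.5 and 48.5 in the control and 46.5, 17.5 and 14.2 in the knockdown. Of the regions called in the knockdown alone, chr14:22860370-22860838 had the highest ranks, at 79.0, 69.7 and 62.1. Another, chr14:23029668-23030285, had its midpoint 0.024 kb inside the bound of the locus.

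At TRB chr7:142337355-142337740 ranked at 54.2, 54.9 and 61.5 in the control and 88.5, 82.6 and 79.3 in the knockdown. The region chr7:142115548-142115887 ranked at 44.5, 64.01 and 53.6 in the control and 68.2, 71.2 and 74.0 in the knockdown. Near the constant genes, chr7:142491063-142491657 was called in 5 libraries, at 44.5 and 57.8 in control replicates 1 and 3 and at 77.9, 69.7 and 75.5 in the knockdown. All 6 TRB regions called in the knockdown alone lay in the variable end, as did 41 of the 46 TRB regions. The highest ranked of the 6, chr7:142255434-142256180, lay at 71.6, 74.0 and 44.7.

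**Figure D4:**
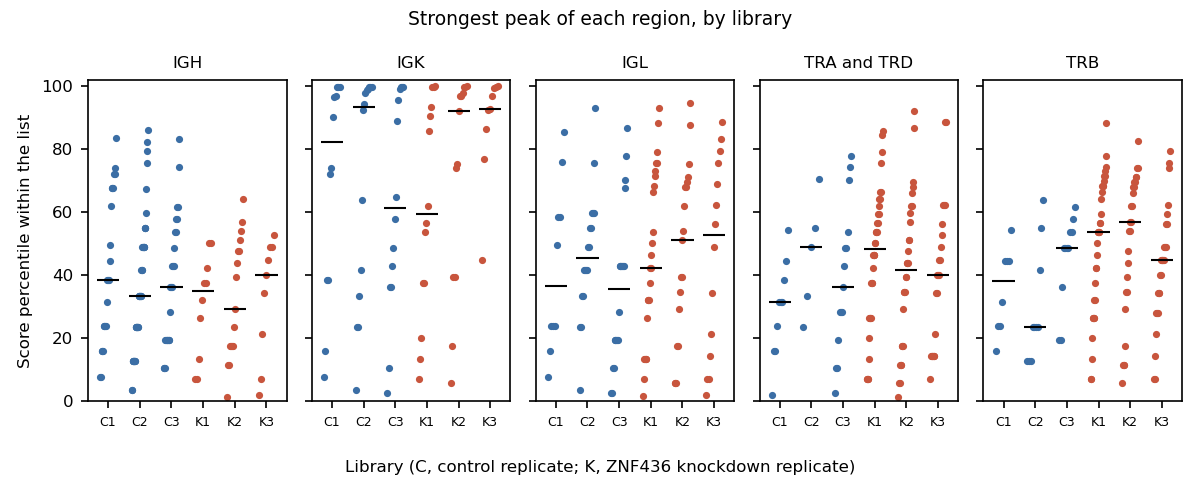
Score percentile, within its library's list, of the strongest peak of each region called in that library (points), with the median over regions as a line; C1 to C3 are control and K1 to K3 knockdown replicates. IGK regions reach the top of every list, above the 99.9th percentile, while knockdown points at IGH stop at 64.1 and control points reach 86.0.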

How the data were processed

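The tools were Bowtie2 2.4.5 and bedtools 2.30.0 on hg19, per the submitters' processing notes. Each deposited list gives peaks with the integer score of the authors' peak caller, MACS by the peak names, called per library, with a lowest score of 20 to 25. What version and threshold the caller had, whether cuts were shifted, and how duplicates and reads mapping to several places were handled is not given in the sources used here. Segment arrays are repetitive, and the part of multiple mapping in these values was not tested.

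The members and lists were chosen with earlier results of these data known. Peaks were assigned by midpoint. Per library, log2((peaks + 0.5) / list length × median list length) was fitted for rows with a mean of at least 2 peaks with limma 3.58.1 (trended, robust variance) in R 4.3.3, 3 against 3 libraries, with Benjamini-Hochberg adjustment over 2852 rows. Ends were compared by exact sign-flip permutation over 6 libraries, adjusted over 5 loci. Named regions are, per locus, up to 5 called in the most libraries, then by median percentile, plus up to 5 per group called in that group alone, by lowest percentile; those that matter most are printed. Flanks, the densest 100 kb, the places of shared regions and the ratio between families were added with the values in view. The limma and merging steps were tested on simulated data. Python 3.11.15, pandas 2.3.3 and scipy 1.17.1 did the rest. No hg19 genome was used, so no sequences are printed. Alternatives covered list length, score, bounds, scaling, pseudocounts, filters, merging and each library.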

Additional observations from a re-analysis of the deposited data

How the results depend on the processing

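The lists hold no reads, so precision per peak is unknown, and depth, list length and group cannot be told apart. Log2 changes are those in share, and the cause of each change below was not tested. With equal list lengths IGH was -4.01, IGL lost its call at -0.45 and TRA/TRD at 0.25. Of 147 member regions, 3 were then of the knockdown alone, against 3.07% of all regions, and 5 of the control alone, against 1.30%. Percentile differences were -20.3 at IGH (2 knockdown libraries), -6.39 at TRA/TRD and 0.45 at TRB. With the stronger 50% of each list IGH was -3.14, IGL -0.067 (call lost), TRA/TRD 1.38 and TRB 1.67, and the IGH percentile difference was -24.6. In that setting 9 of 81 member regions were called in the knockdown alone, against 9.96% of all regions. Without the densest 100 kb of each locus IGH was -2.70, and IGL (-0.17) and TRB (0.38) lost their calls. Percentile differences were 1.86 at IGH and -1.86 at IGL (reversed). Of the 145 member regions left, 6 and 0 were of the knockdown or control alone, against 7.72% and 0.131% of all regions. For IGK, peaks were then too few to fit or rank. Without scaling to list length IGH was -1.09, IGK lost its call (-0.28) and IGL reversed (0.30). TRA/TRD lost its call under scaling to the median ratio (0.64) and IGL with bounds 50 kb wider (-0.44). IGL lost its call in 9 of 18 alternatives and reversed in 1, and TRA/TRD lost its call in 6 of 18. Where 2 of 3 libraries sufficed, 32 of 245 regions were of the knockdown alone, against 19.2% of all regions. Of the control alone there were then 14, against 0.842% of all regions. Merging peaks within 100 bp gave 2 of 236 for the control, against 0.135%.

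Leaving out 1 library gave -0.77 to -0.36 at IGL and 0.42 to 0.99 at TRA/TRD. There were then 14 to 23 regions in the knockdown alone, against 9.04% to 15.6% of all regions. In the control alone there were 1 to 9, against 0.169% to 0.528%. The log2 ratio of constant to variable end at IGH reversed to 0.26 with equal lists, 0.38 with wider bounds and 3.68 without the densest 100 kb. In the last of these, control replicate 3 and the knockdown libraries had no variable-end peak left, so the pseudocount set their ratios. Over covered bases the log2 ratio passed the threshold at IGH (-1.81), TRA/TRD (2.75) and TRB (1.74). Each of these calls depends on IGK having the same p in the adjustment, although the IGK constant end held no covered base. The ratios at IGK (-0.72 with wider bounds, -0.66 with the border moved 20 kb, -1.64 over covered bases) and IGL (0.43 with the stronger 50%, 0.18 with a pseudocount of 1) reversed too, with 0 and 1 peaks in those ends.

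Counts of rows called over the genome were 568 higher and 292 lower. They were 338 and 176 with equal lists, 303 and 442 with scaling to the median ratio, 2563 and 20 without scaling, 312 higher with the stronger 50%, and 130 to 282 higher without 1 knockdown library, with 155 lower without knockdown replicate 1. With the replicate block, 655 rows were higher and 309 lower and no locus changed its call (IGK -1.11, limma adjusted p = 1.8e-05). Same-numbered libraries correlated at 0.031, 0.11 and 0.09 and the other pairs of libraries at -0.14 to 0.043. Control replicates 2 and 3 were closest to the knockdown replicate of their own number, and control replicate 1 to knockdown replicate 2 (0.039). All these correlations were small, and the numbers were not taken as pairs.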
